A study of Mus musculus with 4 samples.

Results

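The unfolded protein response (UPR) is the signalling that links misfolded protein in the endoplasmic reticulum (ER) to the nucleus and the ribosome. It was described in mouse liver through 10 of its genes: the ER membrane sensors Ern1, Atf6, Atf6b and Eif2ak3, the Golgi proteases Mbtps1 and Mbtps2, the transcription factors Xbp1, Creb3l3 and Ddit3, and the phosphatase subunit Ppp1r15a. The genes were chosen by name for their place in the pathway, with earlier results of these data known, and each symbol occurs in a single row of the 35275 genes in the read count table. All 10 had at least 1 CPM (read counts scaled to a common library size) in every library, so no member was lost to a filter on low values.

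Livers of 16 female mice were sequenced as 4 pooled libraries, 1 per group, with the tissue of 4 mice combined in each pool before RNA was extracted. VS mice received vehicle (PBS) and stayed sedentary, VI mice received vehicle and interval training (IT), FS mice received AApoAII amyloid fibrils and stayed sedentary, and FI mice received fibrils and IT. All groups, VS included, carried the amyloidogenic Apoa2c allele of apolipoprotein A-II, so that a small intravenous dose of fibrils seeds systemic amyloid deposits. The strain is R1.P1-Apoa2c on a SAMR1 background in the study's methods and AKR/J, Apoa2c congenic, in the sample labels. Livers were taken at 26 weeks of age after 16 weeks of training, in which treadmill running alternated between slow and fast bouts. Each value is therefore an average over a pool, no group has a replicate, and the spread between mice was not measured.

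Total counts ranged from 23442935 in VS to 28814802 in FS. The tissue label matched the counts, since all 8 hepatocyte markers were present with a summed level between 164493 and 176271 CPM. The VS library stood apart in 9 skeletal muscle genes, all of them detected, whose summed level was 71.8 CPM in VS and 7.96 in VI against 0.779 in FS and 0.248 in FI. Ratios to VS rest on that library, whereas FI versus VI and FI versus FS do not use it, so each factor is given both ways below. In these muscle genes VI also lay above both fibril libraries, and the additive model below uses VS as well. Exocrine pancreas genes summed to between 12.8 and 23.2 CPM, mostly from Cela1, with 7 of 10 at 0 in every library, and intestinal genes summed to between 36.1 and 78.5 CPM, nearly all from Fabp2, with 4 of 7 at 0. Stellate cell genes, all 7 detected, summed to 82.4 CPM in VS and between 63.3 and 68.5 CPM in the other libraries.

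As background, IRE1 (encoded by Ern1) is a kinase and endoribonuclease that cuts Xbp1 mRNA so that it can encode the active factor XBP1s. ATF6 and its relative ATF6B are membrane-held transcription factors that travel to the Golgi under stress and are released there by the site-1 and site-2 proteases (S1P and S2P, encoded by Mbtps1 and Mbtps2), and CREBH, the liver factor encoded by Creb3l3, is released by the same enzymes. PERK (Eif2ak3) slows translation by phosphorylating eIF2alpha, which favours the factor ATF4 and then CHOP (Ddit3), while GADD34 (Ppp1r15a) directs a phosphatase that reverses the phosphorylation. In hepatocytes, which secrete most plasma proteins, these arms set the amount of chaperones and of the machinery for secretion and degradation.

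Levels of different genes were compared per length, as the deposited FPKM (reads scaled by gene length and library total). Creb3l3, a gene mainly of liver and gut, was the most abundant member, at 158 to 210 FPKM, and Xbp1 followed at 65.5 to 122 FPKM. Mbtps1 lay between 13.9 and 14.9 FPKM. Atf6, Atf6b, Ern1, Ddit3 and Ppp1r15a lay close together, between 4.54 FPKM for Ppp1r15a in VS and 10.6 FPKM for Ddit3 in FS, and their order among themselves changed from library to library. The PERK gene Eif2ak3 lay at 2.74 to 5.78 FPKM, below these 5 in VS, VI and FI and above Ppp1r15a in FS, and Mbtps2 was the lowest in every library, at 0.943 to 1.59 FPKM.

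**Figure D1:**
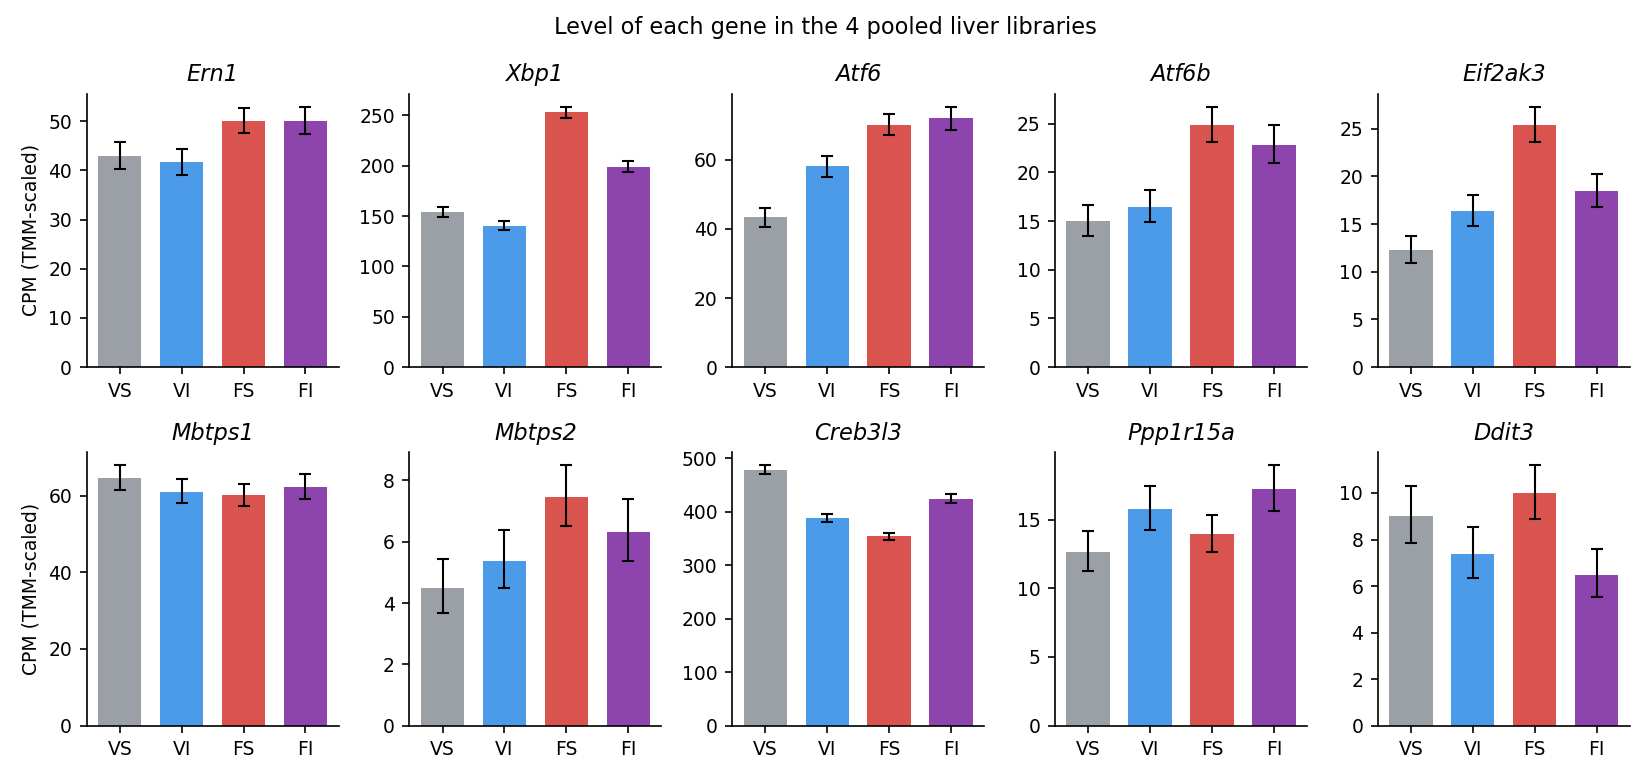
Bars give the level of each of the 10 genes in the VS, VI, FS and FI pools as TMM-scaled CPM on an axis that starts at 0, and error bars are exact Poisson intervals at 95% for counting error only. Xbp1 is highest in FS (253 CPM) and next in FI (199 CPM), while Creb3l3 is highest in VS (478 CPM) and lowest in FS (354 CPM).

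In the following, levels of 1 gene are CPM scaled by TMM (trimmed mean of M values), and a log2 ratio compares 2 libraries with a prior of 0.5 counts added to each. The interval in parentheses is an exact binomial interval at 95%, which covers counting error only and not the spread between mice. Each library enters a ratio for amyloidosis as well as a ratio for IT, VS for example both FS versus VS and VI versus VS, so values that share a library are not independent of each other.

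The 4 sensors, Xbp1 and the protease gene Mbtps2 were higher in both fibril libraries than in both vehicle libraries. This is 6 of 10 members, against 24.4% of the 12180 genes that reached 1 CPM in any library. No member was lower in both fibril libraries, against 22.0% of those genes. In sedentary mice the median log2 ratio of the 10 members (FS versus VS) was 0.46, against 0.019 for all genes, and 8 of 10 were higher, against 52.0% of all genes. In trained mice (FI versus VI) the median was 0.20, against 0.010, and 9 of 10 were higher, against 51.3%. Eif2ak3 alone passed a 2-fold difference in FS versus VS, where 5.80% of all genes did so, and no member passed it in FI versus VI, where 4.54% did.

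The main test was an additive model of amyloidosis and IT over the 4 libraries. It was fitted to 11760 genes by the quasi-likelihood method of edgeR, with adjusted p-values (Benjamini-Hochberg) over all of them. FS and FI enter this model as the same level of amyloidosis, although the study reported less amyloid in FI livers than in FS livers by histology. The spread of each gene in the model is its departure from additivity over the 4 pools, with 1 residual degree of freedom. The method moderates that spread toward a trend over all genes tested, so SEs and p-values rest largely on other genes. They do not measure the spread between mice. For amyloidosis, 585 genes had an adjusted p below 0.05, which is 4.97% of those tested, and 2 of the 10 members were among them, Xbp1 and Atf6b. Before adjustment 5 of the 10 members had a p below 0.05, which adds Atf6, Eif2ak3 and Mbtps2 to these. So did 2512 of the 11760 genes tested. DESeq2 in the same design called Xbp1 only, as did edgeR with TMM factors from all genes, a setting chosen after the data had been seen. With amyloidosis as the single factor 8 genes and no member passed. Without a filter on low counts 4 members did (Xbp1, Atf6, Atf6b and Eif2ak3), among 1519 of 19939 genes.

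Xbp1 (ENSMUSG00000020484, chr11:5520659-5525893 of mm10, plus strand) encodes the transcription factor of the IRE1 arm. Its level was 154 CPM in VS and 140 in VI against 253 in FS and 199 in FI. The 4 counting intervals did not overlap, and both fibril livers lay above both vehicle livers. The log2 ratio was 0.72 (0.66 to 0.78) for FS versus VS, a 1.65-fold higher level, and 0.50 (0.44 to 0.57) for FI versus VI, 1.42-fold. In the additive model of edgeR, Xbp1 rose with amyloidosis by 0.61 on the log2 scale (SE 0.12, adjusted p = 0.0275), and the adjusted p was 0.0139 in DESeq2 and 0.0196 in limma-voom.

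The counts are sums over the gene and do not separate spliced from unspliced Xbp1, so they give the amount of transcript and not the activity of IRE1. The stretch that IRE1 removes is shown because it is the part of the transcript that the gene count cannot resolve. It lies at chr11:5524279-5524304 in the coding part of exon 4 of 5 (GENCODE M21, GRCm38, plus strand), and the 26 bases in capitals are bounded on both sides by the IRE1 recognition letters CNGCAGC, searched on the transcript strand and found as a single pair with cuts 26 bases apart. The printed window is chr11:5524259-5524324, and 26 bases are not a multiple of a codon, so their removal shifts the reading frame.
Xbp1 intron and flanks: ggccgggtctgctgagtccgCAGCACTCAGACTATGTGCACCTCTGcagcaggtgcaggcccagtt

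Ern1 (ENSMUSG00000020715, chr11:106394650-106487852, minus strand), the gene of IRE1 itself, had smaller ratios than its substrate Xbp1. Its level was 42.9 CPM in VS and 41.7 in VI against 50.03 in FS and 50.06 in FI. Counting intervals overlapped between VS and VI and between FS and FI, but not between vehicle and fibril libraries. The log2 ratio was 0.22 (0.10 to 0.34) for FS versus VS and 0.26 (0.14 to 0.39) for FI versus VI, and in the edgeR model the estimate of 0.24 (SE 0.11) did not pass the test, with an adjusted p of 0.265.

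Atf6 (ENSMUSG00000026663, chr1:170704674-170867771, minus strand), the sensor that is itself a membrane-bound transcription factor, had levels of 43.3 CPM in VS and 58.1 in VI against 70.1 in FS and 71.97 in FI. The order was VS, VI, then FS and FI, which did not differ beyond counting error. The log2 ratio was 0.69 (0.59 to 0.80) for FS versus VS and 0.31 (0.21 to 0.41) for FI versus VI, and the edgeR estimate of 0.49 (SE 0.13) had an adjusted p of 0.0657. Atf6b (ENSMUSG00000015461, chr17:34647146-34655074, plus strand), its relative with a weaker activation domain, had levels of 15.0 CPM in VS and 16.5 in VI against 24.9 in FS and 22.9 in FI. Here the vehicle libraries overlapped each other in counting error, the fibril libraries overlapped each other, and both fibril levels were above both vehicle levels. The log2 ratio was 0.73 (0.55 to 0.92) for FS versus VS and 0.47 (0.29 to 0.66) for FI versus VI, and Atf6b rose with amyloidosis by 0.60 on the log2 scale (SE 0.14, adjusted p = 0.0479 in edgeR). That call sat at the threshold. The adjusted p was 0.0392 in limma-voom, 0.0524 in edgeR with TMM factors from all genes and 0.167 in DESeq2.

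Eif2ak3 (ENSMUSG00000031668, chr6:70844515-70905245, plus strand), the gene of the eIF2alpha kinase PERK, had the widest range of the 10 members on the log2 scale. Its level was 12.3 CPM in VS (290 counts) and 16.4 in VI (399 counts) against 25.4 in FS (751 counts) and 18.5 in FI (447 counts). FS stood above the other 3 libraries, VS below them, and VI and FI overlapped in counting error. The log2 ratio in FS versus VS was 1.05 (0.85 to 1.25), a 2.07-fold higher level, and in FI versus VI it was 0.17 (−0.024 to 0.37). The edgeR estimate over both was 0.61, as large as that of Xbp1, but with an SE of 0.21 it did not pass the test (adjusted p = 0.160).

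Of 9348 genes that reached 5 CPM in any library, those whose levels over the 4 libraries were closest to Eif2ak3 were Cybb, Appl1 and Slc6a8, at Euclidean distances of 0.057, 0.060 and 0.079 between log2 CPM centred on each gene's mean. Cybb, the gene of a phagocyte NADPH oxidase subunit, had 6.56 CPM in VS and 8.37 in VI against 13.2 in FS and 9.88 in FI. Appl1, the gene of an endosomal adaptor, had 5.55, 7.76, 11.4 and 8.43 CPM in the same order, and Slc6a8, a creatine transporter gene, had 4.997, 6.61, 9.69 and 7.19 CPM. These distances make no allowance for counting error, which for Eif2ak3 in VS spanned 10.9 to 13.8 CPM, so the order among close genes is not resolved. No other member spanned 2-fold over the 4 libraries, so likeness was not ranked for the other members.

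The genes of the proteases shared by ATF6 and CREBH had unlike ratios in sedentary mice, a contrast between genes that was not tested. Mbtps1 (ENSMUSG00000031835, chr8:119508156-119558761, minus strand), which encodes S1P, had 64.7 CPM in VS and 61.1 in VI against 60.1 in FS and 62.3 in FI. All 4 counting intervals overlapped, and the log2 ratio was −0.11 (−0.20 to −0.0054) for FS versus VS and 0.029 (−0.075 to 0.13) for FI versus VI. Mbtps2 (ENSMUSG00000046873, chrX:157535371-157598715, minus strand), which encodes S2P, had 4.49 CPM in VS (106 counts) and 5.38 in VI (131 counts) against 7.45 in FS (220 counts) and 6.32 in FI (153 counts). Only FS was separated in counting error from VS and VI. The log2 ratio was 0.73 (0.39 to 1.08) for FS versus VS and 0.23 (−0.11 to 0.58) for FI versus VI, and at this depth the second was not distinguishable from 0. Neither gene passed the edgeR test for amyloidosis, with adjusted p of 0.863 for Mbtps1 and 0.231 for Mbtps2.

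Creb3l3 (ENSMUSG00000035041, chr10:81084324-81098874, minus strand), the CREBH gene, was lower in FS than in VS, where Xbp1 was higher. Its level was 478 CPM in VS and 388 in VI against 354 in FS and 424 in FI, and none of the 4 counting intervals overlapped. The log2 ratio was −0.43 (−0.47 to −0.40) for FS versus VS and 0.13 (0.089 to 0.17) for FI versus VI. The additive estimate for amyloidosis was −0.16 (SE 0.16, adjusted p = 0.613 in edgeR), and the sign of the ratio differed between sedentary and trained mice.

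The late genes of the PERK arm did not pass the test for amyloidosis. Ppp1r15a (ENSMUSG00000040435, chr7:45522916-45526268, minus strand), the GADD34 gene, had 12.7 CPM in VS and 15.8 in VI against 13.9 in FS and 17.2 in FI. Ddit3 (ENSMUSG00000025408, chr10:127290774-127296288, plus strand), the CHOP gene, had 9.02 CPM in VS (213 counts) and 7.39 in VI (180 counts) against 9.99 in FS (295 counts) and 6.49 in FI (157 counts). For Ppp1r15a vehicle and fibril levels were interleaved, and for Ddit3 both vehicle levels lay between those of FI and FS. Log2 ratios for Ppp1r15a were 0.14 (−0.082 to 0.36) for FS versus VS and 0.13 (−0.078 to 0.33) for FI versus VI. For Ddit3 they were 0.15 (−0.11 to 0.41) and −0.19 (−0.51 to 0.13), and the adjusted p for amyloidosis in edgeR was 0.660 for Ppp1r15a and 0.971 for Ddit3. Ddit3 overlaps the opposite-strand gene Mars by 68 bases and Gm4189 by 15, and Ppp1r15a overlaps Tulp2 by 717. The sources used here do not say whether counting used strand. Tulp2 held 10 to 18 counts, but Mars held 1239 to 1713.

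By counting error alone, 6 members were higher in FS than VS, against 27.2% of all genes, and 2 (Mbtps1 and Creb3l3) were lower, against 25.7%. In FI versus VI the interval lay above 0 for 5 members (Ern1, Xbp1, Atf6, Atf6b and Creb3l3), against 23.1%, and below 0 for none, against 23.8%. Such intervals are narrow at this depth, so a large share of all genes passes them without any replicate.

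**Figure D2:**
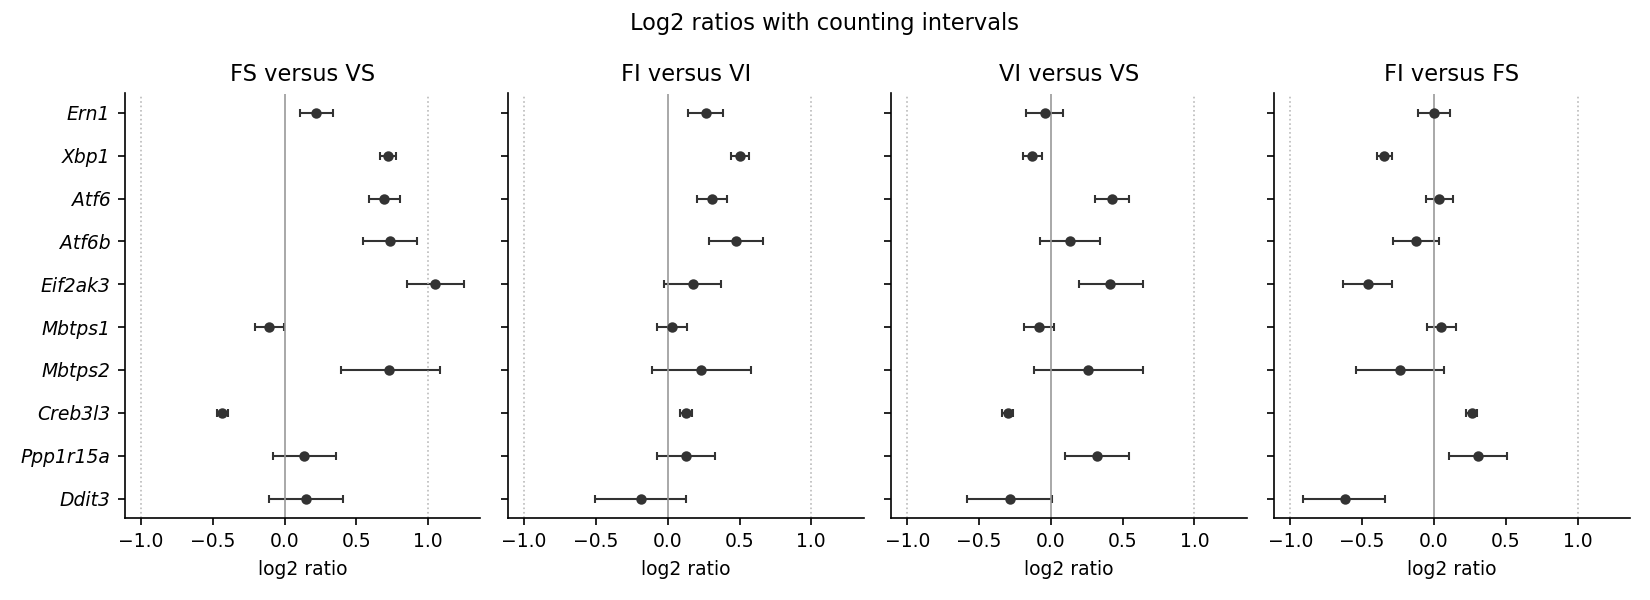
Points are log2 ratios of the 10 genes in the comparisons FS versus VS, FI versus VI, VI versus VS and FI versus FS, bars are 95% counting intervals, and dotted lines mark a 2-fold difference. Ern1, Xbp1, Atf6 and Atf6b lie to the right of 0 in both fibril comparisons, and Eif2ak3 passes 2-fold in FS versus VS only (log2 ratio 1.05).

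IT was compared within vehicle mice (VI versus VS) and within fibril mice (FI versus FS), which use no common library. Because the study reported less liver amyloid in FI than in FS, training and amyloid load differ together in FI versus FS and cannot be told apart. No member differed by 2-fold in either comparison, where 3.44% and 4.28% of all genes did. The median of the 10 members was 0.046 in VI versus VS, against 0.0035 for all genes, and −0.061 in FI versus FS, against 0.0017, with 5 of 10 members higher in each, against 50.7% and 50.2% of all genes. In the edgeR model 174 genes passed for IT, which is 1.48% of those tested, and no member did. Ddit3 alone of the members had an unadjusted p below 0.05, as did 1726 of the 11760 genes. In limma-voom no member passed either, with 1 below 0.05 before adjustment, as were 1773 of the 11760 genes. In DESeq2 no member passed with or without adjustment, where 761 genes were below 0.05 before it.

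Ppp1r15a and Ddit3 differed in opposite directions with IT, and neither passed the test. Ppp1r15a was higher in both IT libraries than in both sedentary libraries, as were 17.3% of all genes, with log2 ratios of 0.32 (0.098 to 0.54) for VI versus VS and 0.31 (0.11 to 0.51) for FI versus FS. Ddit3 was lower in both IT libraries, as were 17.3% of all genes, with −0.29 (−0.58 to 0.0053) and −0.62 (−0.91 to −0.34). The edgeR estimates for IT were 0.32 for Ppp1r15a (SE 0.14, adjusted p = 0.354) and −0.45 for Ddit3 (SE 0.18, adjusted p = 0.286). With 1 member of 10 on each side, these counts do not set the members apart from all genes.

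Xbp1 was lower with IT in both settings, by a log2 ratio of −0.13 (−0.20 to −0.061) for VI versus VS and −0.35 (−0.40 to −0.29) for FI versus FS, with an edgeR estimate of −0.24 (SE 0.12, adjusted p = 0.412). The FI pool held more Xbp1 than either vehicle pool. Ern1 ratios were −0.043 (−0.17 to 0.083) and 0.00099 (−0.11 to 0.11), and those of Mbtps1 were −0.082 (−0.19 to 0.022) and 0.052 (−0.048 to 0.15). Atf6 was higher in VI than VS, by 0.42 (0.31 to 0.54), and its ratio in FI versus FS was 0.038 (−0.054 to 0.13). Under total counts in place of TMM, the FI versus FS ratios of Ern1, Atf6 and Mbtps1 turned to −0.070, −0.033 and −0.019. Atf6b ratios were 0.13 (−0.075 to 0.35) and −0.12 (−0.28 to 0.038), and those of Mbtps2 were 0.26 (−0.12 to 0.64) and −0.24 (−0.54 to 0.068), none distinguishable from 0 at this depth.

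Eif2ak3 and Creb3l3 differed in opposite directions in vehicle and fibril mice. Eif2ak3 was higher with IT in vehicle mice, by a log2 ratio of 0.41 (0.19 to 0.64), and lower with IT in fibril mice, by −0.46 (−0.63 to −0.29). The difference of these ratios, fibril minus vehicle, was −0.88 (−1.15 to −0.60). Creb3l3 was lower with IT in vehicle mice, by −0.30 (−0.34 to −0.26), and higher with IT in fibril mice, by 0.26 (0.22 to 0.30), a difference of 0.56 (0.51 to 0.62). Mbtps2, Atf6, Ddit3, Atf6b and Xbp1 had differences between −0.49 and −0.22. The interval lay below 0 for Atf6 (−0.53 to −0.24), Xbp1 (−0.30 to −0.13) and Mbtps2 (−0.97 to −0.021). It included 0 for Atf6b (−0.52 to 0.0029) and Ddit3 (−0.73 to 0.066). Mbtps1, Ern1 and Ppp1r15a had differences between −0.011 and 0.13, with intervals that included 0. These intervals cover counting error only, by a normal approximation, and the interaction has no residual degree of freedom and no test. Counting intervals lay above 0 in VI versus VS for 3 members (Atf6, Eif2ak3 and Ppp1r15a), against 22.3% of all genes, and below 0 for 2 (Xbp1 and Creb3l3), against 21.7%. In FI versus FS they lay above 0 for 2 (Creb3l3 and Ppp1r15a), against 24.3%, and below 0 for 3 (Xbp1, Eif2ak3 and Ddit3), against 23.9%.

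**Figure D3:**
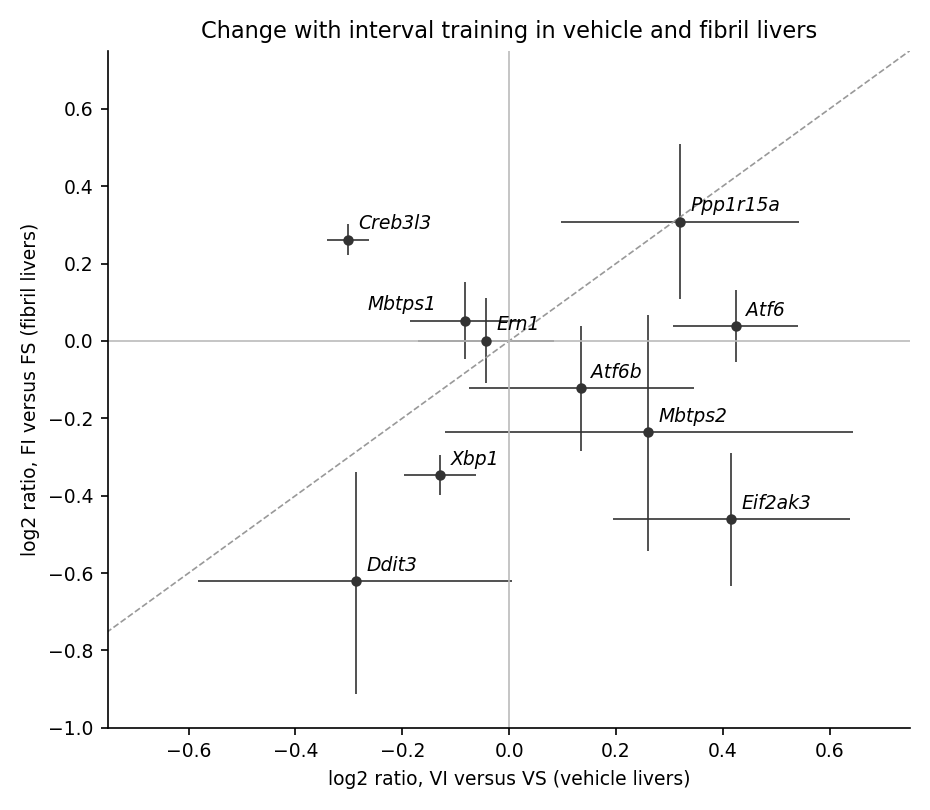
Each point is a gene, with its log2 ratio for IT in vehicle mice (VI versus VS) on the horizontal axis and in fibril mice (FI versus FS) on the vertical axis, bars are 95% counting intervals and the dashed line marks equal ratios. Eif2ak3 (0.41 and −0.46) and Creb3l3 (−0.30 and 0.26) lie in opposite quadrants, and Ppp1r15a (0.32 and 0.31) lies on the line.

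The lists of genes downstream of XBP1 and ATF6 had larger median log2 ratios for amyloidosis than the 10 members, although single targets such as Derl1 (0.28 for FS versus VS) lay below Atf6 or Atf6b, and lists and members were not compared by a test. The 9 lists that follow were written down with earlier results of these data known, so their direction is a description and not independent evidence. As a reference for every list, 52.0% of all genes were higher in FS versus VS and 51.3% in FI versus VI. Of 18 XBP1 targets, which serve folding, translocation and ER-associated degradation, 18 were higher in FS than VS, 9 of them by more than 2-fold, with a median log2 ratio of 0.999, against 0.019 for all genes. In FI versus VI 17 were higher, 2 of them by more than 2-fold, with a median of 0.49. In the edgeR model 10 of 18 rose with amyloidosis and none fell, where 4.97% of all genes were called in either direction. Of 12 ATF6 targets, the chaperones and their helpers, 12 were higher in FS, 8 of them by more than 2-fold with a median of 1.41, and 12 were higher in FI versus VI, 4 of them by more than 2-fold with a median of 0.91. Of these 12, 9 rose in the edgeR model and none fell. Both lists share Dnajb11.

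Derl3, which encodes a channel component of ER-associated degradation, had 18 counts in VS and 44 in VI against 512 in FS and 290 in FI. The log2 ratio of Derl3 was 4.47 (3.83 to 5.27) for FS versus VS and 2.72 (2.27 to 3.22) for FI versus VI, with an estimate of 3.49 (SE 0.38, adjusted p = 0.00652 in edgeR). Sdf2l1, which encodes a partner of ER chaperones, had 159, 278, 2061 and 1015 counts in the same order and log2 ratios of 3.37 and 1.88, and an adjusted p of 0.0536 in edgeR. The call for Sdf2l1 depended on the method, with an adjusted p of 0.00671 in DESeq2, 0.00209 in limma-voom, 0.00387 in edgeR without robust estimation, 0.0412 with TMM factors from all genes and 0.156 without a filter on low counts. Creld2, a secreted ER stress protein gene, had log2 ratios of 2.66 and 1.81 (adjusted p = 0.00441), and Hyou1, a large ER chaperone gene, had 2.14 and 1.19 (adjusted p = 0.0125). Hspa5, the BiP gene, was added after its values had been seen, with 308, 430, 1161 and 823 CPM in VS, VI, FS and FI and an adjusted p of 0.0223 in edgeR. In all 5 genes the order of the libraries was VS, VI, FI, FS.

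With IT in fibril mice most of these targets were lower. In FI versus FS 16 of 18 XBP1 targets and 10 of 12 ATF6 targets were lower, with medians of −0.40 and −0.47, against 0.0017 for all genes. Of all genes 50.2% were higher in that comparison. None of these targets differed by more than 2-fold there, where 4.28% of all genes did. In VI versus VS 14 of 18 and 10 of 12 were higher, against 50.7% of all genes, with medians of 0.087 and 0.14, against 0.0035. No gene of either list passed the edgeR test for IT, where 1.48% of all genes tested did.

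In the lists around IRE1 and PERK, 1 gene each passed the test for amyloidosis, where 4.97% of all genes did so. Of 9 expressed IRE1 partners out of 10 listed, 7 were higher in FS versus VS and 5 in FI versus VI, with medians of 0.44 and 0.087. Of all genes 52.0% and 51.3% were higher. Syvn1, the ubiquitin ligase gene that is also listed among ATF6 targets, was the single partner that rose in the edgeR model (log2 ratios 1.64 and 0.82, adjusted p = 0.0203). Map3k5, the gene of the kinase ASK1, had 0.30 and 0.68, and Tmbim6, an ER membrane protein gene, had −0.42 and −0.19. Of 12 genes around eIF2alpha, 8 were higher in each comparison, with medians of 0.18 and 0.062. Dnajc3, an ER co-chaperone gene known to restrain PERK, was the single one that rose (0.90 and 0.63, adjusted p = 0.0147 in edgeR). Dnajc3 is also counted among the XBP1 targets. Eif2b2, a subunit gene of the exchange factor for eIF2, had 0.30 and 0.32, and Ppp1r15b, the constitutive counterpart of Ppp1r15a, had −0.28 and −0.15. Atf4, named after its values had been seen, had 0.12 and −0.29.

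Of 10 expressed ATF4 and CHOP targets out of 17 found, 8 were higher in FS versus VS and 9 in FI versus VI, with medians of 0.84 and 0.25 (mean 0.67 for FI versus VI, where Ddit4 alone had 3.53), and 3 rose in the edgeR model, namely Ddit4, Chac1 and Trib3. Ddit4, an inhibitor of mTOR signalling that glucocorticoids and hypoxia are also known to induce, had 85 counts in VS and 368 in VI against 1632 in FS and 4234 in FI. It rose with amyloidosis by 3.70 on the log2 scale (SE 0.15, adjusted p = 2.02e-05 in edgeR) and with IT by 1.82 (SE 0.14, adjusted p = 0.00115), and its highest level was in FI, where Ddit3 was lowest. Chac1, a glutathione-degrading enzyme gene, had log2 ratios of 1.29 and 0.89 (adjusted p = 0.0216 in edgeR).

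Substrates of IRE1-dependent decay other than Xbp1 had medians of 0.027 in FS versus VS and 0.11 in FI versus VI over 7 expressed genes of 8 listed, with 4 higher in each and none called, and the mean for FS versus VS was −0.083. Their most shared differences were in Pmp22 (0.060 and 0.64), Hgsnat (0.19 and 0.11) and Scara3 (−0.87 and −0.86, on at most 31 counts). Of the membrane-bound factors related to Creb3l3, 2 of 4 were expressed, and Creb3 had ratios of 0.10 and 0.25 and Creb3l2 of 1.57 and −0.013, with neither called.

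CREBH targets differed in both directions. Over 8 genes the medians were 0.31 in FS versus VS and 0.079 in FI versus VI, with 6 and 5 genes higher, and the mean for FI versus VI was −0.034. Fgf21, a fasting hormone gene, fell with amyloidosis, with log2 ratios of −1.93 and −1.58 (adjusted p = 0.00622 in edgeR), and no other gene of the list passed in that fit. Apcs, an acute phase protein that also binds amyloid, had 7268 counts in VS and 14224 in VI against 32186 in FS and 19296 in FI, with an adjusted p of 0.165, and Apoa4, a lipoprotein gene, had ratios of 1.56 and 0.50 (adjusted p = 0.0743 in edgeR). Both passed in limma-voom (adjusted p = 0.0356 for Apcs and 0.0221 for Apoa4) and without a filter on low counts, Apoa4 also without robust estimation (0.0357), and neither in DESeq2 (0.607 and 0.401). Of 5 genes of the sterol pathway that S1P and S2P also serve, Srebf1 fell with amyloidosis (−0.79, SE 0.11, adjusted p = 0.00957 in edgeR) and with IT (−0.70, SE 0.11, adjusted p = 0.0291). Insig2, which holds that pathway back, rose with both (0.68, adjusted p = 0.0141, and 1.12, adjusted p = 0.00413). The list medians were −0.18 in FS versus VS and −0.28 in FI versus VI.

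**Figure D4:**
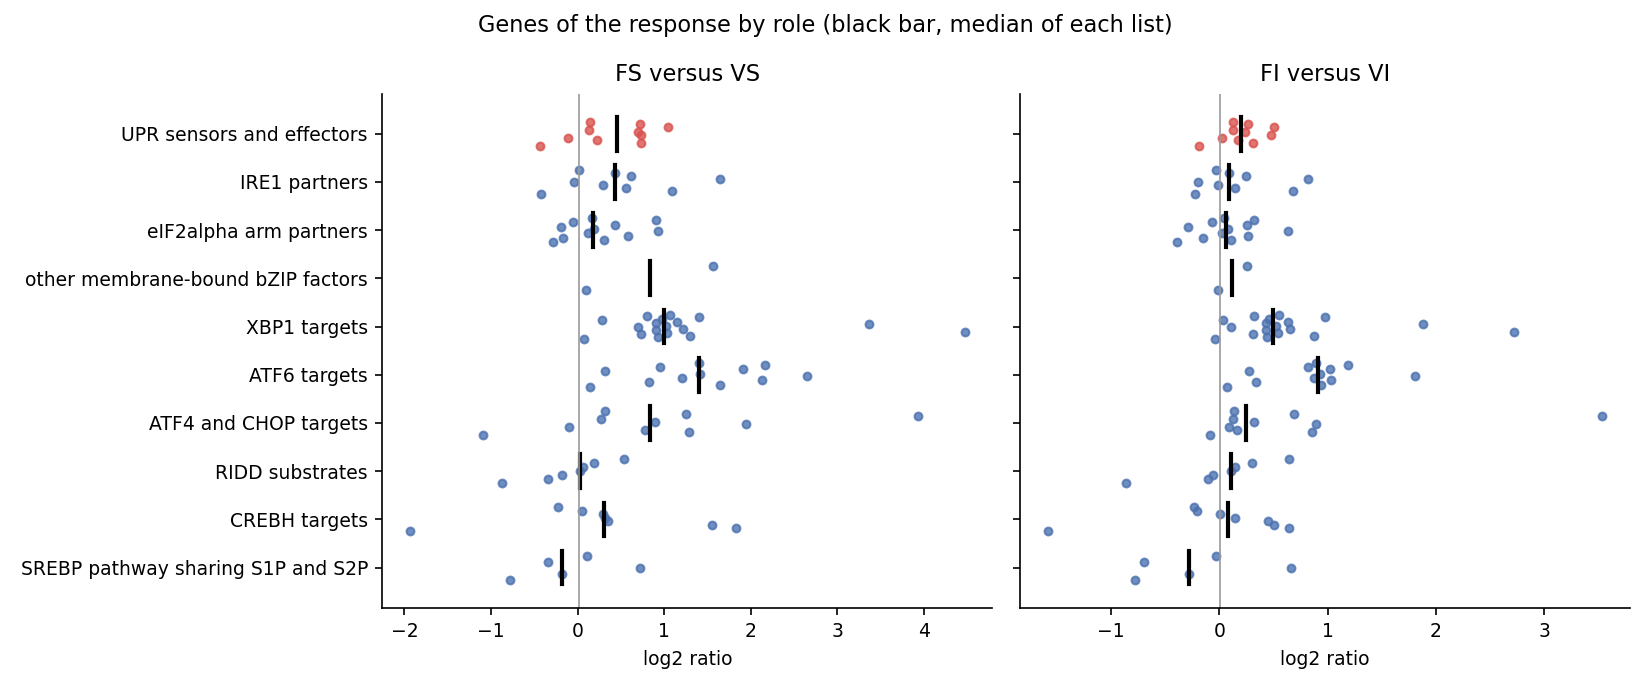
Each point is a gene, placed by its log2 ratio in FS versus VS (left) or FI versus VI (right), in the 10 UPR genes (red) and in 9 lists of related genes (blue), with the black bar at the median and the grey line at the median of all genes. ATF6 targets have medians of 1.41 and 0.91 and XBP1 targets of 0.999 and 0.49, against 0.46 and 0.20 for the 10 UPR genes.

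Markers of other cell types differed between the same libraries. Kupffer cell genes, all 9 detected, summed to 300.2 CPM in VS and 363 in VI against 463 in FS and 462 in FI. Plasma and B cell genes, whose secretory lineage depends on Xbp1, were all 13 detected, 7 at 1 CPM or more, and summed to 36.2, 25.2, 53.1 and 42.1 CPM in the same order, with the plasma cell receptor gene Tnfrsf17 at 0 except for 5 counts in FS. Neutrophil genes summed to 2.67, 3.57, 18.5 and 13.8 CPM, with Prtn3 the main source in FS and FI, and T cell genes to between 1.56 and 2.07 CPM, with none at 1 CPM. In pooled tissue, more cells of a type and more RNA per cell cannot be told apart, and the part of these cells in the levels of Xbp1, Derl3 or the other genes was not tested.

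Promoters of the members and of the targets were read for the letters of the ER stress response element (ERSE), the site bound by ATF6 together with the factor NF-Y: CCAAT, 9 bases, CCACG, on either strand. RefSeq promoters (250 bases before to 50 after the start, GRCm38.p6) were given for 9 of 10 members, and Atf6 had no entry. The element occurred in 0.119% of 32851 promoters. It was in none of the 9 members, in 6 of 10 ATF6 target genes with an entry (Calr, Canx, Creld2, Hsp90b1, Hspa5 and Syvn1) and in 3 of 15 XBP1 target genes (Derl3, Dnajc3 and Pdia6). With at most 1 mismatch it occurred in 1.5% of all promoters and in 1 member, Ddit3. The elements of 3 of these targets, those with the largest ratios, and that of Ddit3 are shown so that the letters can be compared with each other, with CCAAT and the CCACG position in capitals. Ddit3 carries the substitution C15G, counted from 1 at the C that opens CCAAT.
Hspa5, chr2:34772012-34772056, plus strand: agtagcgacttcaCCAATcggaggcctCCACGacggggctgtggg
Creld2, chr15:88819507-88819551, minus strand: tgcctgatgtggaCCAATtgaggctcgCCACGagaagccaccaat
Derl3, chr10:75893229-75893273, minus strand: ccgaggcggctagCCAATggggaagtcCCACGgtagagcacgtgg
Ddit3, chr10:127290689-127290733, minus strand: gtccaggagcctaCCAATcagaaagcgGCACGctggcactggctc

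Over all 9 targets with the complete letters the log2 ratio for FS versus VS ranged from 0.32 (Canx) to 4.47 (Derl3), with 0.90 for Dnajc3, 0.96 for Calr, 1.03 for Pdia6, 1.20 for Hsp90b1, 1.64 for Syvn1, 1.91 for Hspa5 and 2.66 for Creld2. Sdf2l1, which has an entry without these letters, had 3.37, and Ddit3 had 0.15. No relation between the letters and the ratio was tested. The related letters ATTGG, 1 base, CCACG (ERSE-II), TGACGTGG (the core of the UPR element) and TGATGCAA (an ATF4 site) occurred in 0.0365%, 0.676% and 0.895% of all promoters, searched on both strands, and in none of the 9 members. These are matches of letters in a short window, and binding was not measured.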

How the data were processed

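Total RNA of liver tissue pooled by group was extracted and sequenced on an Illumina platform. The authors deposited raw counts for each gene in each library and FPKM values made from them, of which 69722 of 69722 above 0 lay within 0.1% of the count divided by gene length and library total. The submitters' processing notes name fastp 0.23.2, STAR 2.5, HTSeq 0.6.1 and mm10. Of the 10 genes, 9 have the same start and end in GENCODE M21, Mbtps1 excepted. The totals of the count columns were 23442935 (VS), 24524287 (VI), 28814802 (FS) and 24801185 (FI).

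The tools were edgeR 4.0.16, DESeq2 1.42.0 and limma 3.58.1 under R 4.3.3, with matplotlib 3.10.9 under Python 3.11.15 for the figures. Ratios used TMM-scaled CPM with a prior of 0.5 counts over 12180 genes that reached 1 CPM in any library, and intervals at 95% were Clopper-Pearson (conditional on the sum of both counts) or Poisson. With 1 library per group these comparisons have no test. An additive model of amyloidosis and IT with 3 coefficients, which leaves 1 residual degree of freedom, used the robust quasi-likelihood fit of edgeR on 11760 genes that reached 1 CPM in 2 or more libraries, with TMM factors from these genes. Members and lists were chosen with earlier results of these data known. All members are named, and from each list the 2 genes with the largest rise and the 1 with the largest fall shared by both fibril comparisons, by the smaller absolute log2 ratio, as well as the 3 nearest profiles of members that span 2-fold. Motifs and markers follow fixed lists. Alternatives were other scalings, priors, filters, fold thresholds, FPKM with a pseudocount of 1 or 0.1, DESeq2, limma-voom, 1 factor alone, list means for medians, and a fit that was not robust.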

Additional observations from a re-analysis of the deposited data

Results flagged for a closer look

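Eif2ak3, the PERK gene, differed with IT in opposite directions in vehicle and fibril mice, with a log2 ratio of 0.41 without fibrils (VI versus VS) and −0.46 with fibrils (FI versus FS) and a difference, fibril minus vehicle, of −0.88. Creb3l3, the CREBH gene, did so the other way round, with −0.30 and 0.26 and a difference of 0.56. The same 4 values of Creb3l3 also give opposite directions for amyloidosis in sedentary and trained mice, −0.43 in FS versus VS and 0.13 in FI versus VI, with the same difference of 0.56. Every group is 1 pool, so these differences were not tested.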

How the results depend on the processing

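Of 200 log2 ratios of the 10 genes recomputed under other scalings, a prior of 2, or FPKM, 194 lay within the counting interval, and the other 6 were Xbp1 and Creb3l3 in FI versus FS, at −0.42 and 0.19 under total counts and within rounding of these under FPKM. Listed for IT without and with fibrils and then for amyloidosis without and with IT, the genes past the fold threshold numbered 1418, 1647, 2140 and 1702 at 1.5-fold, 4030, 4177, 4567 and 4197 without a filter on low counts, and 144, 203, 353 and 229 with a minimum of 5 CPM. At 1.5-fold 5 of the 10 genes passed in FS versus VS and 1 in FI versus FS. Under total counts 2 of them, with Mbtps1 added to Ddit3, were lower in both IT libraries.

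For amyloidosis the additive model called 1519 genes and 4 of the 10 without a filter, 8 genes and 0 of the 10 with amyloidosis as the single factor, and 1 of the 10 with DESeq2 or with TMM factors from all genes (chosen after seeing the data). For IT it called 740 genes without a filter and 0 with IT as the single factor. Estimates far from the threshold that changed sign were Ddit3 for amyloidosis (0.0049) and Atf6b (−0.021), Creb3 (0.00018) and Apcs (−0.014) for IT with 1 factor alone, Atf6b for IT in limma-voom (−0.0077), and Mbtps2 (0.0070), Sdf2l1 (0.0078) and Derl3 (0.18) for IT in DESeq2. Calls for single list genes were gained under other methods (Sdf2l1, Apcs and Apoa4), and for Map3k5 without a filter. Calls were also lost. With amyloidosis as the single factor Syvn1, Dnajc3, Derl3, Hyou1, Chac1, Ddit4, Fgf21, Srebf1 and Insig2 no longer passed. With IT as the single factor Ddit4, Srebf1 and Insig2 no longer passed. Several list means differed from medians. For XBP1 targets the mean was 1.24 against a median of 0.999 in FS versus VS, and 0.66 against 0.49 in FI versus VI. For ATF6 targets it was 0.85 against 0.91 in FI versus VI and −0.36 against −0.47 in FI versus FS. For ATF4 and CHOP targets it was 0.67 against 0.25 in FI versus VI. The sterol list had −0.045 against −0.21 in VI versus VS. It had −0.18 against −0.36 in FI versus FS and −0.094 against −0.18 in FS versus VS. In FI versus FS the medians under total counts were −0.47 for XBP1 and −0.54 for ATF6 targets. The cause of these differences was not tested. The filter sets both the number of genes tested (11760 with it and 19939 without) and the genes on which the model is fitted. No paired analysis was possible because each group has 1 library, and leaving out a library leaves the additive model no residual degree of freedom.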

Other observations

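Creb3l2, a membrane-bound factor of the CREBH family that is better known from cartilage and other secretory tissues than from liver, had 12.4 CPM in VS and 18.1 in VI against 36.8 in FS and 17.9 in FI. FS stood above the other 3 libraries, as it did for Eif2ak3, with log2 ratios of 1.57 (1.38 to 1.76) for FS versus VS and −1.03 (−1.20 to −0.87) for FI versus FS, and the edgeR estimates did not pass the test (adjusted p = 0.386 for amyloidosis and 0.833 for IT). The gene was singled out after its values had been seen.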
